A study of Arabidopsis thaliana with 6 samples.

Results

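Long introns, here those of 500 bases or more, were examined in wild-type seedlings of Arabidopsis thaliana and in seedlings labelled as a mutant of the PRMT5 gene. The members were every interval that the deposited intron table marks as a plain intron, with a listed length of 500 bases or more, in a gene of chromosomes 1 to 5. There were 4935 of them in 4393 genes, which is 4.09% of the 120720 intervals so marked. The study compared 3 libraries of the wild type (WT, accession Col-0) with 3 libraries of the prmt5 mutant, also labelled Col-0. Whole plants were harvested after 9 days at 22 °C in continuous white light, following 4 days of cold treatment of the seeds at 4 °C in the dark, and poly(A)-selected RNA was sequenced. The labels name no allele of the mutant, and they do not say whether the replicates came from separate cultures, so p-values measure the spread between these libraries. The tissue label is a pool of tissues, and in such bulk RNA fewer cells of a type and less RNA per cell cannot be told apart.

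PRMT5 is an arginine methyltransferase that puts symmetric dimethyl marks on proteins, among them the Sm proteins that form the core of the spliceosome's small nuclear ribonucleoproteins. In Arabidopsis, mutants of it are known for late flowering, an altered circadian clock and introns that stay in the mature transcript. An intron begins at a 5′ splice site, which pairs with U1 small nuclear RNA, and ends at a 3′ splice site. Plant introns are mostly short, and the long ones tend to lie near the start of the gene, where some raise expression or hold regulatory elements, transposons or other genes.

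The splice sites of the introns with the strongest changes are shown first, because raised and uncalled long introns differed in their 5′ splice sites. Each line gives 20 bases around the 5′ splice site, 5′ to 3′ on the gene's strand, from the TAIR10.1 genome. The capitals are the last 3 exon bases and the first 6 intron bases, and the commonest base at each of these positions over all tested introns gave the consensus AAGGTAAGT. The first 10 introns are those raised in prmt5 with the smallest p, from the smallest upwards.
RPL34 intron 2, chr1:26190157-26190796, plus strand: agGGTGTTAGTattcttcag
CBL3 intron 1, chr4:13410169-13410942, minus strand: gtGGCGTAAGGctttttctt
CA2 intron 2, chr5:4759219-4760524, plus strand: gtATAGTATATaaattatac
AT3G24570 intron 1, chr3:8967379-8968377, minus strand: tcACCGTTAGTcattttccg
AT5G55125 intron 1, chr5:22372151-22372724, plus strand: ctCGCGTAAACgcttcttca
APT2 intron 1, chr1:30112478-30112980, minus strand: cgCCGGTTCCTttcactttc
CSLA02 intron 3, chr5:7557408-7558633, minus strand: gtTCGGTAATCatttcatta
AT5G48610 intron 3, chr5:19712692-19713874, plus strand: taAAGGTTCATatgtcaact
AT3G24740 intron 1, chr3:9031271-9031846, plus strand: aaTTTGTAATTttctcgtct
LTPG2 intron 1, chr3:15615944-15616735, minus strand: ttCTCGTATATttcttgacc

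For comparison, these are 5 other long introns described further on, in the same form. AT3G20430, HB17 and SR34a were lowered in prmt5, while the first introns of the MADS-box genes MAF1 and AGL31 were raised. They are a selection: AT3G20430 and HB17 are among the 5 lowered introns with the smallest p, and SR34a is not.
AT3G20430 intron 3, chr3:7121975-7122506, plus strand: atGAGGTATACactacttca
HB17 intron 3, chr2:188057-189397, minus strand: gcAAGGTACGGttttatttt
SR34a intron 1, chr3:18331713-18332247, plus strand: ccCCGGTACGGattcattca
MAF1 intron 1, chr1:28955864-28958333, plus strand: gaCGAGTAAGAagatacttt
AGL31 intron 1, chr5:25982600-25984680, plus strand: gaCAAGTAAGCtgctacttt

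The long introns had a median length of 661 bases against 98 bases for the 115743 shorter ones, and 843 of them reached 1000 bases. A RefSeq intron with the same ends was found for 4667. Of these, 51.4% were the first intron of the transcript, against 17.7% of the shorter introns, and 13.5% lay in the 5′ untranslated region (UTR), against 3.38%. Exons of some RefSeq transcript lay inside 1423 members, and 481 held an exon of another gene. An exact splice junction was counted for 3946 members, and of the 3940 with a known strand 99.3% began with GT and ended with AG.

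Gene counts summed to between 38564256 and 75461631 per library, and 550 long introns had no count in any library. Usage was defined as the intron's count as a percentage of its gene's count in the same library, and coverage as the intron's counts per base as a percentage of the counts per base of its gene's exons. Introns with a mean of at least 5 intron counts and at least 50 gene counts were tested with edgeR's quasi-likelihood test, with the gene's count as the offset, and p-values were adjusted by Benjamini-Hochberg over all 53291 such introns. Among the long introns 3196, in 2943 genes, met these minimums. The other 1739 did not, 1675 of them for too few intron counts and 64 for too few gene counts. An intron is called raised or lowered here when its adjusted p was under 0.05. The counts do not tell apart reads from an unspliced transcript, an alternative exon or another gene inside the intron, and the library protocol in the labels names no step that keeps the strand.

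The PRMT5 gene itself (SKB1) had a level of 30.0 ± 1.21 CPM (counts scaled to library size) in WT against 32.2 ± 2.98 in prmt5 (SD, n = 3), with an edgeR adjusted p of 0.30. It holds no long intron, and 1 of its shorter introns rose in usage from 0.363% ± 0.141 to 4.66% ± 0.314 (log2 change 3.70, adjusted p = 5.4e-13). Whether this gene's RNA should differ depends on the allele, so its level does not check the labels.

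Long introns were more often raised than lowered in prmt5. Of the 3196 tested, 908 were raised, or 28.4%, and 40 were lowered, or 1.25%, where over all 53291 tested introns 21.6% were raised and 0.518% were lowered. The raised ones lay in 880 genes, and 592 of them changed at least 2-fold, 136 at least 4-fold and 36 at least 8-fold. In 1125 of all 3196 tested long introns (35.2%) every prmt5 library lay above every WT library, and in 95 (2.97%) below, against 30.9% and 2.55% of all tested introns. The median log2 change was 0.42 over the long introns and 0.37 over all tested introns. Since usage is relative to the gene, these values follow the gene offset: without it the median of the long introns was −0.03, and 463 were called raised (14.5%) and 369 lowered (11.5%), against 13.7% and 6.92% of all tested introns. After the median change of all tested introns was taken away, 444 were raised (13.9%) and 228 lowered (7.13%), against 12.4% and 3.53%. Under both settings the share of raised long introns was close to that of all introns, and the lowered share was the one further from it.

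In absolute terms most raised long introns remained a small part of their gene's RNA. Their median usage was 1.32% in WT and 3.34% in prmt5, and their median coverage was 2.61% and 7.04% of that of the exons. Coverage passed 10% of the exons in 134 of the 908 in WT and in 334 in prmt5, and it passed 50% in 8 and 36.

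Length and share raised did not run in parallel over the whole range. The share was 15.5% for introns under 80 bases, 25.5% from 250 to under 500 bases, 28.1% from 500 to under 750, 28.6% from 750 to under 1000 and 30.7% from 1000 to under 2000. In the 66 tested introns of at least 2000 bases it was 19.7%, with 7 lowered (10.6%) and a median log2 change of 0.07. Introns just outside and just inside the length limit were alike in this measure: 27.3% of 853 introns from 450 to under 500 bases and 28.6% of 658 introns from 500 to under 550 bases were raised, with median log2 changes of 0.46 and 0.47.

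**Figure D1:**
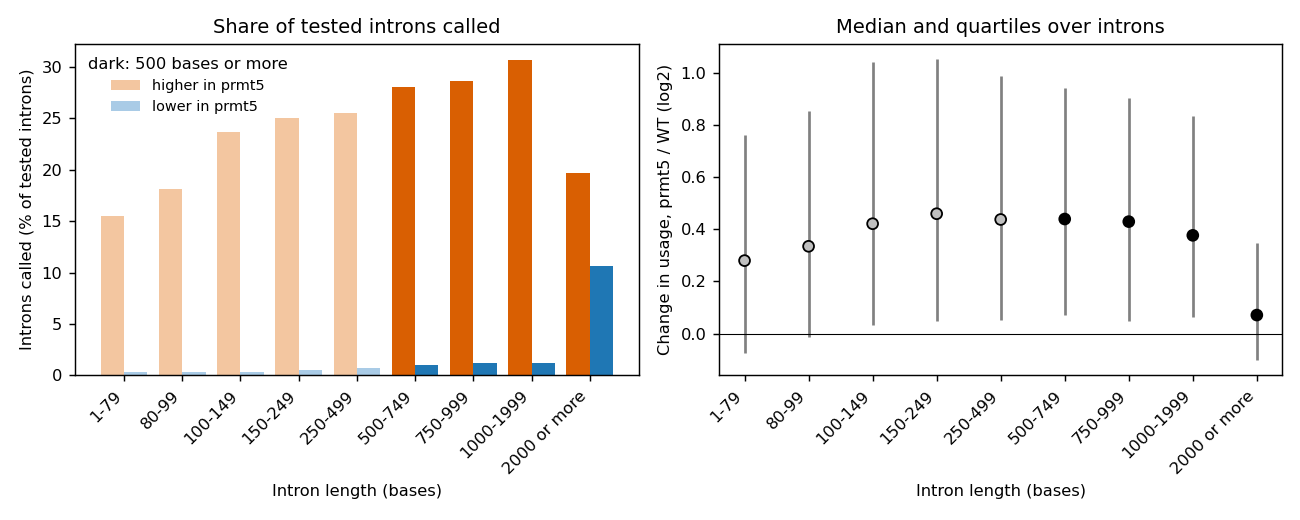
Share of tested introns raised (orange) and lowered (blue) in prmt5 by length class in bases (left), and the median change in usage with its quartiles on a log2 scale (right); dark colours mark classes of 500 bases or more. The share raised goes from 15.5% in the shortest class to 30.7% from 1000 to under 2000 bases, and the 66 introns of at least 2000 bases have a median change of 0.07.

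Long introns collect more reads than short ones, and the chance of a call depends on the count. The median mean count was 24.7 for the tested long introns and 12.3 for the shorter ones. Within classes of the mean count the shares raised were close: 11.7% of long and 11.6% of shorter introns with 5 to 10 counts, 22.3% and 21.2% with 10 to 20, and 32.2% and 31.0% with 20 to 50. With 50 to 100 counts they were 44.9% and 39.5%, and above 100 counts 37.6% and 38.3%. The part of these counts in the higher share over all long introns was not tested further.

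Summed over introns, usage per kilobase (kb) gave a different order of the groups according to what the introns held. Pooled usage of long introns was 3.94, 4.47 and 4.00% of the gene count per kb in WT and 5.08, 4.77 and 4.43% in prmt5. One prmt5 library lay below the highest WT library, and the means of 4.14% ± 0.287 and 4.76% ± 0.324 (SD, n = 3) gave p = 0.2 in a two-sided exact permutation test, where 3 libraries against 3 cannot go below 0.1. The shorter introns rose from 3.00% ± 0.186 to 4.06% ± 0.217 with no overlap of the libraries (exact p = 0.1).

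The ratio of long to shorter pooled usage within a library was 1.38, 1.39 and 1.37 in WT against 1.19, 1.16 and 1.16 in prmt5 (p = 0.1 by the same exact test). This fall did not hold once introns with a RefSeq exon inside were left out of both groups, an alternative chosen after the data were seen. Long introns without such exons went from 1.82% ± 0.162 to 2.67% ± 0.219 per kb (exact p = 0.1, no overlap), and their ratio to the shorter ones was 0.746 ± 0.0188 in WT and 0.778 ± 0.0230 in prmt5 (exact p = 0.2). Long introns with an exon of another gene inside stood at 13.6% ± 0.419 and 14.1% ± 0.497 per kb (exact p = 0.3), several times the level of the others in both genotypes. By the median over tested introns, coverage of long introns was 3.10% ± 0.197 of the exons in WT and 4.80% ± 0.298 in prmt5 (exact p = 0.1), and that of shorter introns was 6.40% ± 0.240 and 9.28% ± 0.338.

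**Figure D2:**
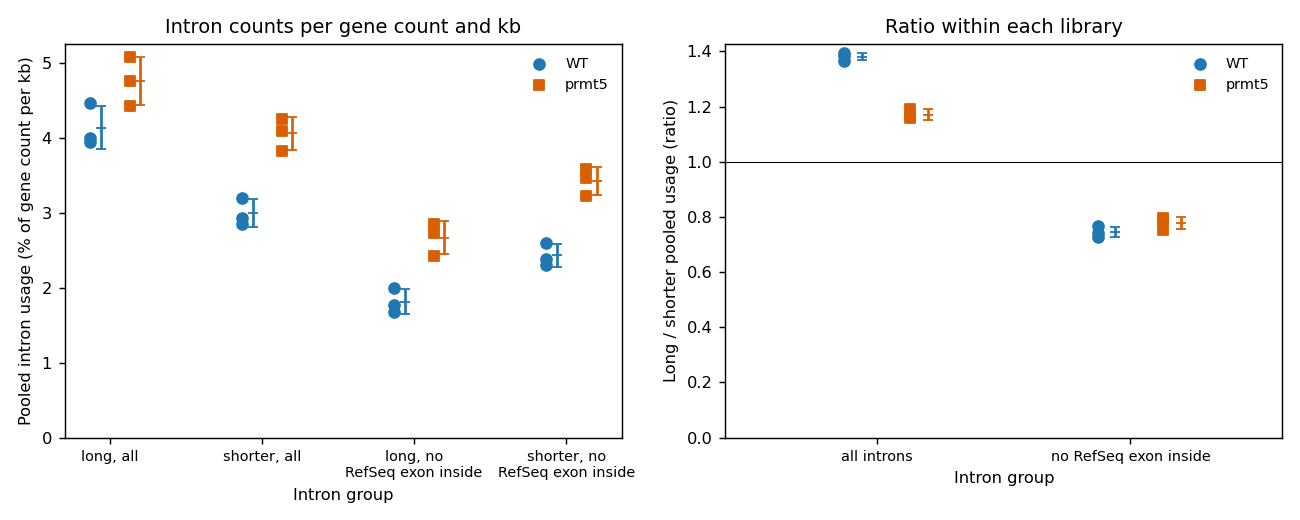
Pooled intron usage in each library, in percent of the gene count per kb (left), and the ratio of long to shorter introns within each library (right); circles are WT, squares prmt5, and bars the mean with its SD. Over all introns the ratio is lower in the prmt5 libraries, 1.17 on average against 1.38, while without introns that hold a RefSeq exon it is 0.778 against 0.746.

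What lay inside an intron also went with the share raised. Of the 2065 tested long introns without a RefSeq exon inside, 30.3% were raised and the median log2 change was 0.50. For the 785 with an exon of their own gene only, these values were 27.9% and 0.33, and for the 346 with an exon of another gene they were 18.5% and 0.10. By region, 30.8% of the 474 tested long introns in a 5′ UTR, 30.0% of the 2363 in a coding region and 16.9% of the 130 in a 3′ UTR were raised. First introns and later introns differed little, with 29.6% of 1572 and 29.0% of 1457 raised. The shares on chromosomes 1 to 5 ranged from 25.5% to 31.3%.

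The 5′ splice sites of raised long introns were further from the consensus. Each site was scored by the summed log2 odds of its 9 bases, with weights from 50639 tested introns that had an exact junction. The mean score was 6.32 ± 2.01 in 875 raised long introns and 7.49 ± 1.89 in 2023 that were not raised (SD over introns). Such a gap was not particular to long introns: it was 5.42 ± 2.08 in 9981 raised shorter introns against 7.17 ± 1.98 in 36111 not raised. In 4 equal classes of the score, from the lowest to the highest, 47.4%, 35.5%, 23.6% and 14.2% of the long introns were raised. Shorter introns in the same ranges of the score were raised in 39.4%, 21.7%, 11.6% and 5.12% of cases, and in each range they had fewer counts than the long ones, with medians of 11.2 to 13.3 against 21.3 to 28.2.

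The difference lay on both sides of the exon-intron boundary. G at the last exon base was found in 75.3% of raised and 85.4% of uncalled long introns, and A at the exon base before it in 54.1% and 68.3%. Inside the intron, A at the third base was found in 57.0% and 66.9%, and G at the fifth base in 46.4% and 54.5%. The sixth base differed less, with T in 55.2% and 56.8%. At least 7 of the 9 bases matched the consensus in 19.5% of raised and 37.3% of uncalled long introns. Among shorter introns these shares were 10.8% and 31.7%, and G at the last exon base was found in 64.1% and 85.6%. Among the introns printed above, RPL34, CBL3, CA2, AT3G24570, AT5G55125, AT3G24740 and LTPG2 have no G as the last exon base. Their scores were 3.01, 2.97, 2.20, 3.04, 2.32, 1.61 and 2.41. The site scored for CA2 had only 4 to 22 junction counts per library, against 3372 to 7606 at a site further upstream. MAF1 and AGL31 lack the G at the last exon base as well, with the higher scores of 4.67 and 6.96. So does the second intron of CAX1, which was lowered in prmt5 and is not printed above, with a score of 4.94. At the other end of the intron no such difference was seen: 63.1% ± 13.9 and 63.5% ± 14.7 of the 15 bases from 20 to 6 bases before the exon were C or T (SD over introns), and C stood before the final AG in 69.0% and 67.1%.

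**Figure D3:**
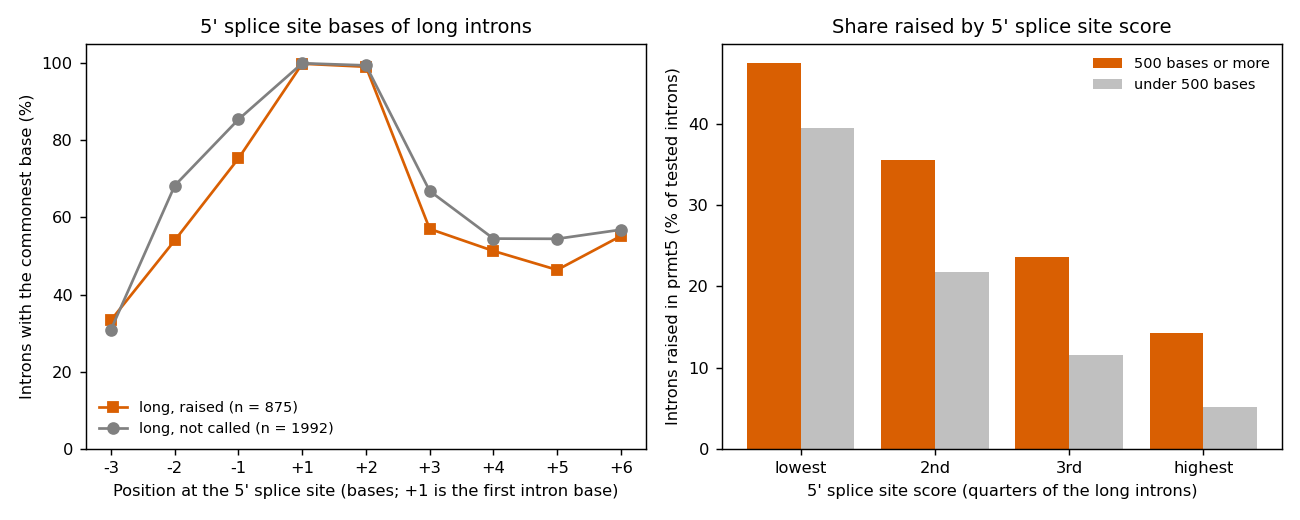
Percentage of long introns with the commonest base at each position of the 5′ splice site, for 875 raised and 1992 uncalled introns (left), and the percentage of tested introns raised in each of 4 classes of the 5′ splice site score for long and shorter introns (right). Raised introns fall below the others at the last exon base (75.3% against 85.4%) and the share raised falls from 47.4% to 14.2% over the classes of the long introns.

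The 10 raised introns with the smallest p rose between 4.69-fold and 27.1-fold in mean usage, and for each of them all prmt5 libraries lay above all WT libraries. Intron 2 of RPL34, which encodes a protein of the large ribosomal subunit, went from 270, 234 and 371 counts to 3823, 2699 and 4203. These were 2.67, 3.32 and 2.95% of the gene's count in WT and 37.1, 35.3 and 32.7% in prmt5, the most significant change among the long introns (log2 change 3.56 ± 0.11 SE, adjusted p = 5.6e-27). Its own junction fell from 20.9% ± 0.282 to 14.8% ± 0.732 of the gene's count (adjusted p = 4.5e-05). The intron holds 2 snoRNA genes in RefSeq, AT1G09083 and AT1G09087, and a junction that starts at the last base of AT1G09083 and runs to the intron's end had 1, 1 and 3 counts in the WT libraries against 20, 8 and 20. That junction was singled out after its values were seen and was not tested.

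CBL3, a calcineurin B-like calcium sensor, rose at its 774-base first intron in the 5′ UTR from 1.18, 1.51 and 1.31% to 20.6, 21.6 and 18.7% (log2 change 3.95 ± 0.16, adjusted p = 1.3e-22). Intron coverage went from 1.89% to 28.7% of the exons. The gene itself went from 42.2 to 50.4 CPM (log2 change 0.25, adjusted p = 0.0067). In RefSeq this intron also holds an exon of another CBL3 transcript.

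APT2, an adenine phosphoribosyltransferase of the adenine salvage pathway, showed the change on both sides of the splicing reaction. Usage of its first intron went from 9.92, 9.66 and 10.8% to 52.9, 56.5 and 50.6% (log2 change 2.39 ± 0.13, adjusted p = 1.5e-18). The junction that removes the intron went from 110, 60 and 112 counts to 38, 16 and 27 (log2 change −2.92 relative to the gene, adjusted p = 6.4e-10), although the gene rose from 13.8 to 33.0 CPM (adjusted p = 8.0e-07). Coverage of the intron in prmt5 was 88.6% of that of the exons.

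AT5G55125, annotated as a ribosomal protein L31, had the highest usage of these introns in prmt5. Its single intron, in the 5′ UTR, went from 7.36, 8.43 and 7.504% to 60.0, 63.0 and 56.0% (adjusted p = 8.9e-19), with the junction lower as well (log2 change −0.67, adjusted p = 0.025) and the gene at 10.9 and 10.8 CPM. AT3G24570, a membrane protein of the Mpv17/PMP22 family, went from 7.19, 5.67 and 7.49% to 43.2, 47.9 and 40.6% (adjusted p = 8.5e-19). The files mark both genes as overlapping another, and AT3G24570's intron holds exons of AT3G04755 and AT3G24575, so reads of a second transcript may be counted there. A junction from AT3G24570's downstream exon into the middle of the intron, absent from the annotation in the files, had 0, 0 and 2 counts in WT against 18, 23 and 16 in prmt5, was chosen after its values were seen and was not tested.

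Of the other 5, the third intron of AT5G48610, a myb-like protein X in RefSeq, rose the most: its counts were 1, 4 and 14 in WT against 222, 159 and 289 in prmt5 (log2 change 4.68 ± 0.28, adjusted p = 5.5e-17). CSLA02, a cellulose synthase-like glycosyltransferase that makes mannan, rose from 0.569, 0.663 and 0.958% to 7.89, 7.19 and 6.16% (adjusted p = 1.7e-17). AT3G24740, which RefSeq gives a DUF1644 domain, went from 1.36% ± 0.494 to 12.9% ± 0.410 (adjusted p = 9.0e-17), and the lipid-transfer protein gene LTPG2 from 2.07% ± 0.363 to 11.1% ± 1.78 (adjusted p = 1.0e-16). CA2, a beta carbonic anhydrase of the leaf, is the most highly expressed of the 10 at 1352 CPM in WT, and its intron 2 went from 0.584% ± 0.0599 to 2.74% ± 0.244 (adjusted p = 1.8e-20). Most CA2 transcripts splice from a site 5 bases upstream of the one printed, with between 3372 and 7606 junction counts per library against 4 to 22, and the exon interval upstream of the intron rose alongside it (log2 change of mean usage 1.99).

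**Figure D4:**
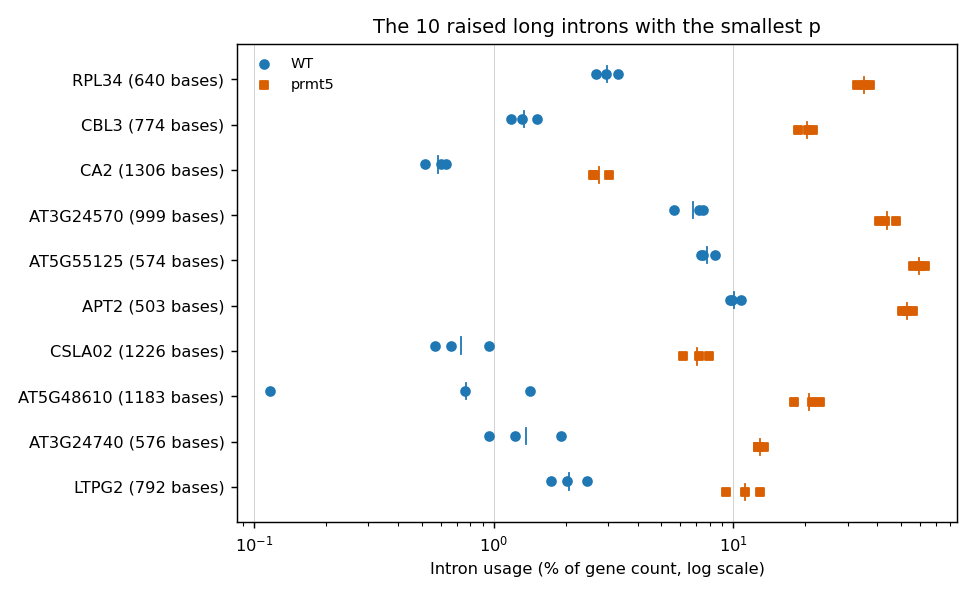
Usage of the 10 raised long introns with the smallest p, in percent of the gene count on a log scale; each point is a library, circles WT and squares prmt5, and the vertical ticks are the means of 3. For every intron the 3 prmt5 libraries lie above the 3 WT libraries, from 2.59 to 3.02% against 0.518 to 0.635% in CA2 up to 56.0 to 63.0% against 7.36 to 8.43% in AT5G55125.

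Of the 40 lowered long introns, in 39 genes, many held other annotated sequence. A RefSeq exon lay inside 22 of the 40, against 283 of the 908 raised ones and 1131 of all 3196 tested long introns. No exact junction was counted for 9 of the 40, where 2904 of the 3196 had one. Host genes of lowered introns were higher in prmt5 in 15 cases (37.5%) and lower in 2 (5%), against 17.9% and 15.4% of all tested genes. The gene's count is the denominator of usage, so usage falls where the host count rises by a larger factor than the intron count. The part of this in the lowered calls was not tested. The lowered intron with the smallest p, the 10234-base intron of AT3G60961, had more counts than its gene: 732, 408 and 750 intron counts in WT stood beside 50, 32 and 46 gene counts, and 504, 416 and 562 in prmt5 beside 56, 50 and 76 (log2 change −0.82, adjusted p = 2.7e-07). RefSeq places the pseudogene AT3G60965 in it.

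In AT3G20430, annotated as similar to an RNA export adapter, the third intron fell from 13.5, 13.7 and 13.9% to 6.38, 4.55 and 4.77% (log2 change −1.39 ± 0.21, adjusted p = 1.1e-06), with no RefSeq exon inside and no overlapping gene. The counts of its own junction were 34, 15 and 47 in WT and 52, 51 and 70 in prmt5, which did not pass the test (adjusted p = 0.28). Junctions with an end inside this intron totalled 31, 12 and 24 across the WT libraries, against 7, 4 and 3 across those of the mutant. These inner junctions were singled out after the intron's values were seen and were not tested. HB17, a homeodomain-leucine zipper transcription factor, fell at intron 3 from 29.7, 44.2 and 35.5% to 16.6, 17.9 and 15.2% (adjusted p = 4.1e-05) while the gene rose from 3.18 to 6.05 CPM (adjusted p = 0.00042), and an exon of another HB17 transcript lies in this intron. CAX1, the vacuolar calcium/proton exchanger, fell at its second intron from 0.888, 0.916 and 0.875% to 0.498, 0.368 and 0.546% (adjusted p = 7.5e-05). In AT3G22240, which encodes a small PCC1-like protein, the intron fell from 25.3% ± 4.33 to 15.2% ± 2.40 (adjusted p = 2.9e-06) and its junction rose (log2 change 0.68, adjusted p = 4.2e-06), but 68.3% of this intron's stretches of 50 bases are repeated in the genome and its values are uncertain.

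Junctions showed far fewer changes than intron counts. Of 3445 tested junctions of long introns, 25 were lowered and 2 were raised, or 0.726% and 0.0581%, against 0.668% lowered and 0.035% raised of all 94259 tested intron junctions. The median log2 change was −0.03 in both. At an unadjusted edgeR p under 0.05 there were 209 of the 3445, beside 5585 of all 94259. Among 851 raised long introns with a tested junction, 20 had a lowered one, and 574 (67.5%) had a log2 change below 0, against 55.4% of the uncalled long introns. The median junction change was −0.07 for raised long introns and −0.02 for the 1877 uncalled ones. After APT2, the lowered junctions with the smallest p were those of AT2G30766, from 5.12% ± 0.330 to 1.33% ± 0.303 of the gene's count (adjusted p = 3.3e-09), and of UAP56a, an RNA helicase of splicing and mRNA export, from 4.86% ± 0.160 to 2.46% ± 0.184 (adjusted p = 9.4e-08). Both raised junctions belonged to lowered introns, AT3G22240 and SR34a. Without WT replicate 1 the lowered junctions numbered 15, without prmt5 replicate 3 they numbered 16, and without WT replicate 2 the raised ones numbered 4.

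Junctions with an end inside a long intron, as use of a hidden splice site or of a nested exon would give, were not more common in the mutant. They made up 1.37% ± 0.0357 of the junction counts of the host genes in WT against 1.13% ± 0.0639 in prmt5 (exact permutation p = 0.1, no overlap). Of the 3609 such junctions 3353 were not annotated in the files, and these alone made up 0.177% ± 0.00488 and 0.165% ± 0.00638 (exact p = 0.1).

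Host genes of long introns changed about as often as all genes. Of 3813 tested hosts 710 were higher in prmt5 and 567 lower, or 18.6% and 14.9%, against 17.9% and 15.4% of all 22509 tested genes. Hosts of raised long introns were higher in 20.9% and lower in 19.4% of cases, and hosts of uncalled ones in 17.1% and 15.8%. A raised long intron did not bring all of its gene's introns with it: 23.5% of the 2538 other tested introns in the same genes were raised, against 20.7% of 5538 in genes whose long introns were uncalled. In 230 genes with 2 or more tested long introns, 103 had at least 1 raised, and in 75 of these it was exactly 1. In 28 genes 2 or more were raised, and in 25 every tested long intron was. These genes held 483 tested long introns with 131 raised, against 28.4% of all tested long introns. Whether raised long introns share genes more or less often than that share implies was not tested.

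The long introns were next read in 5 lists of genes. Their background is the shares over all tested long introns, 28.4% raised and 1.25% lowered with a median log2 change of 0.42. The lists were chosen with earlier results of these data known, so their shares and medians describe them and test nothing. SR and RS proteins are splicing factors with arginine-serine domains, and many of their genes are themselves alternatively spliced in a long intron. All 9 long introns in 8 of the 19 listed genes were tested, and 3 were raised and 1 lowered, a raised share near that background, with a median log2 change of 0.34 against 0.42. RS31 intron 2 went from 25.8, 22.2 and 23.3% to 31.0, 32.3 and 30.1% (adjusted p = 0.0042), SCL30A intron 3 from 14.3, 11.6 and 11.8% to 21.4, 23.5 and 17.8% (adjusted p = 1.3e-05), and SCL33 intron 3 from 21.6% ± 2.97 to 29.7% ± 2.35 (adjusted p = 0.0019). The SCL33 call was lost without WT replicate 3 (adjusted p = 0.050) and without the gene offset (adjusted p = 0.188). With the median change of all introns removed, RS31 and SCL33 were not called (adjusted p = 0.955 and 0.679).

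SR34a was the lowered one of the group, and its splicing moved between alternative ends of the first intron. Usage of the 535-base intron fell from 1.41, 1.35 and 1.54% to 0.505, 0.916 and 0.874% (log2 change −0.93, adjusted p = 0.0020), and without the gene offset it was not called (adjusted p = 0.165). Its junction rose from 79, 27 and 81 to 263, 191 and 319 counts, which relative to the gene was a log2 change of 1.24 (adjusted p = 8.5e-06). A junction from the same start to an acceptor further downstream went from 7.78% ± 0.714 to 4.32% ± 0.537 of the gene's count, chosen after its values were seen and not tested. The exon interval after the intron had a log2 change of mean usage of 1.16, and the gene rose from 60.2 to 116 CPM (adjusted p = 4.1e-06).

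Among 10 other RNA-binding splicing regulators, 5 had a long intron, all were tested, and 2 were raised, against 28.4% of all long introns, with a median log2 change of 0.25 against 0.42. Both were polypyrimidine tract-binding protein genes, which repress exons near pyrimidine-rich sequence. PTB1 went from 3.62, 4.84 and 3.84% to 6.38, 5.84 and 5.95% (adjusted p = 0.015) and PTB2 from 3.97, 4.50 and 3.42% to 6.21, 6.78 and 4.43% (adjusted p = 0.023). The libraries of the genotypes overlapped in PTB2, where 1 prmt5 library lay below 1 WT library, and not in PTB1. RefSeq places an exon of another transcript of the same gene inside both introns. An unannotated junction from the start of the PTB1 intron into it went from 1.47% ± 0.338 to 2.35% ± 0.319 of the gene's count. Another, from inside it to its end, went from 1.03% ± 0.299 to 1.67% ± 0.202. These junctions were chosen after their values were seen and were not tested. The PTB1 call was lost without WT replicate 1, WT replicate 3 or prmt5 replicate 1 (adjusted p = 0.092, 0.079 and 0.058), and that of PTB2 without WT replicate 1, WT replicate 3, prmt5 replicate 1 or prmt5 replicate 2 (adjusted p = 0.050, 0.16, 0.102 and 0.157). Neither was called by DESeq2 (adjusted p = 0.0607 and 0.0787) or with the median change of all introns removed (adjusted p = 0.492 and 0.586). Without the gene offset PTB1 was called (adjusted p = 0.00021) and PTB2 was not (adjusted p = 0.303).

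MADS-box genes encode transcription factors of flowering and flower organs, and their long introns carry much of their regulation. Of 24 listed genes 22 held 28 long introns, but 21 of these had too few counts in these seedlings, among them both long introns of FLC and of AG. Of the 7 tested, 4 were raised and 1 lowered, against 28.4% and 1.25% of all long introns, with a median log2 change of 1.17 against 0.42. The introns of SEP4 and SVP were not called (log2 changes 1.17 and 0.34, edgeR adjusted p = 0.066 and 0.30). The first introns of 3 floral repressors of the FLC clade rose together. MAF1, also called FLM, went from 5.04, 4.12 and 5.05% to 12.4, 17.6 and 12.8% (log2 change 1.57 ± 0.15, adjusted p = 5.3e-11). AGL31, also called MAF2, went from 2.89, 1.99 and 1.98% to 10.9, 11.7 and 8.20% (log2 change 2.15 ± 0.18, adjusted p = 1.2e-12), and MAF3 from 3.85, 3.25 and 3.53% to 16.0, 18.5 and 18.7% (log2 change 2.31 ± 0.21, adjusted p = 1.2e-11).

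In none of these 3 introns did the prmt5 and WT libraries overlap, and their 5′ splice sites share an A, not a G, as the last exon base. AGL31 and MAF3 have the same 9 bases there. Their own junctions did not pass the test, with log2 changes of −0.03 in MAF1, 0.08 in AGL31 and −0.16 in MAF3. In RefSeq the introns of MAF1 and AGL31 also hold an exon of another transcript of their gene, while that of MAF3 holds no exon. MAF1 transcripts are known to join the first exon to either of a pair of alternative second exons. The junction to the nearer one stood at 11.3% ± 0.926 and 11.2% ± 0.632 of the gene's count, while the annotated junction to the further one, at chr1:28958456, went from 45, 17 and 57 counts in WT to 1, 4 and 6 in prmt5, with no overlap. That junction was chosen after its values were seen and has no test here. An unannotated junction from the start of the AGL31 intron to beyond its end went from 0.770% ± 0.251 to 0.312% ± 0.158 of the gene's count. The like junction of MAF3 stood at 4.11% ± 0.674 and 4.09% ± 1.01, and neither was tested. The MAF1 gene rose from 33.7 to 45.9 CPM (adjusted p = 0.00052), whereas AGL31 stood at 38.4 and 36.2 CPM (adjusted p = 0.60).

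The remaining calls in MADS-box genes were lost under several alternatives. AGL20, also called SOC1, a promoter of flowering, had an intron usage of 2.52% ± 0.656 in WT and 3.84% ± 1.29 in prmt5 with overlapping libraries (adjusted p = 0.044), and the call was lost without WT replicate 2, WT replicate 3 or prmt5 replicate 3 (adjusted p = 0.058, 0.262 and 0.532), by DESeq2 (adjusted p = 0.182) and with a replicate block (adjusted p = 0.069), and without the gene offset the intron's log2 change was −0.69. Its gene fell from 35.4 to 18.9 CPM (adjusted p = 2.2e-05). AGL14 had 2, 11 and 26 intron counts in WT against 12, 0 and 10 in prmt5 (adjusted p = 0.0499), and this call was lost without WT replicate 2, WT replicate 3, prmt5 replicate 2 or prmt5 replicate 3 (adjusted p = 0.082, 0.565, 0.184 and 0.132), by DESeq2 (adjusted p = 0.581), with a replicate block (adjusted p = 0.087) and without the gene offset (adjusted p = 0.21).

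Actin, ubiquitin, elongation factor and profilin genes are known for leader introns that raise expression. Of 22 listed genes 5 held a long intron, 4 were tested and 2 were raised, against 28.4% of all long introns, with a median log2 change of 0.68 against 0.42, but both remained at very low usage. AT1G07930, an elongation factor 1-alpha gene, went from 0.0333, 0.0418 and 0.0396% to 0.0745, 0.0728 and 0.0686% (adjusted p = 0.0087, and 0.054 without WT replicate 1). It belongs to a family of near-identical genes, among which reads may be divided. ACT7, an actin of growing tissue, went from 0.138, 0.133 and 0.149% to 0.220, 0.191 and 0.248% (adjusted p = 0.036), with no overlap of the libraries in either gene. The ACT7 call was lost without any one of WT replicates 1, 2 and 3 and prmt5 replicates 1 and 3 (adjusted p = 0.1, 0.059, 0.074, 0.074 and 0.169), by DESeq2 (adjusted p = 0.129), with a replicate block (adjusted p = 0.055) and without the gene offset (log2 change 0.17, adjusted p = 0.688). With the median change of all introns removed, AT1G07930 and ACT7 were not called (adjusted p = 0.179 and 0.474).

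Genes with long introns that hold heterochromatin, and their regulators, had 8 long introns in 5 of 7 listed genes. Of the 6 tested 2 were raised and 1 lowered, a raised share near the 28.4% of all long introns, with a median log2 change of 0.33 against 0.42. AT1G58602, which encodes a nucleotide-binding, leucine-rich repeat disease resistance protein, has 4 of them. Intron 2, of 4420 bases and in the 5′ UTR, rose from 3.60, 4.54 and 4.11% to 12.9, 11.9 and 11.7% (log2 change 1.58 ± 0.11, adjusted p = 2.6e-15). Intron 1, of 7384 bases and with the pseudogene AT1G58561 inside, fell from 11.4, 16.3 and 12.2% to 11.1, 7.77 and 10.1% (log2 change −0.46, adjusted p = 0.0025), but not without prmt5 replicate 2 (adjusted p = 0.076).

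The other 2 long introns of AT1G58602 were not called. Intron 3 stood at 0.552% ± 0.0357 and 0.648% ± 0.0965 (adjusted p = 0.48) and intron 8, in the 3′ UTR, at 2.08% ± 0.524 and 2.63% ± 0.281 (adjusted p = 0.069, and 0.000785 without WT replicate 2). The gene fell from 275 to 132 CPM (log2 change −1.05, adjusted p = 1.4e-06), so the intron counts themselves had other directions: without the gene offset intron 2 was not called (adjusted p = 0.841), and introns 3 and 8 were lower. AT3G05410, a PsbP-family protein with a 5748-base intron, went from 19.1% ± 1.40 to 27.8% ± 3.65 with no overlap of the libraries (adjusted p = 0.0018), but its log2 change was −0.07 without the offset, and it was not called with the median change of all introns removed (adjusted p = 0.437). IBM1, a histone demethylase whose long intron is known to be methylated, had only 2 to 7 counts in that intron per library and was not tested.

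**Figure D5:**
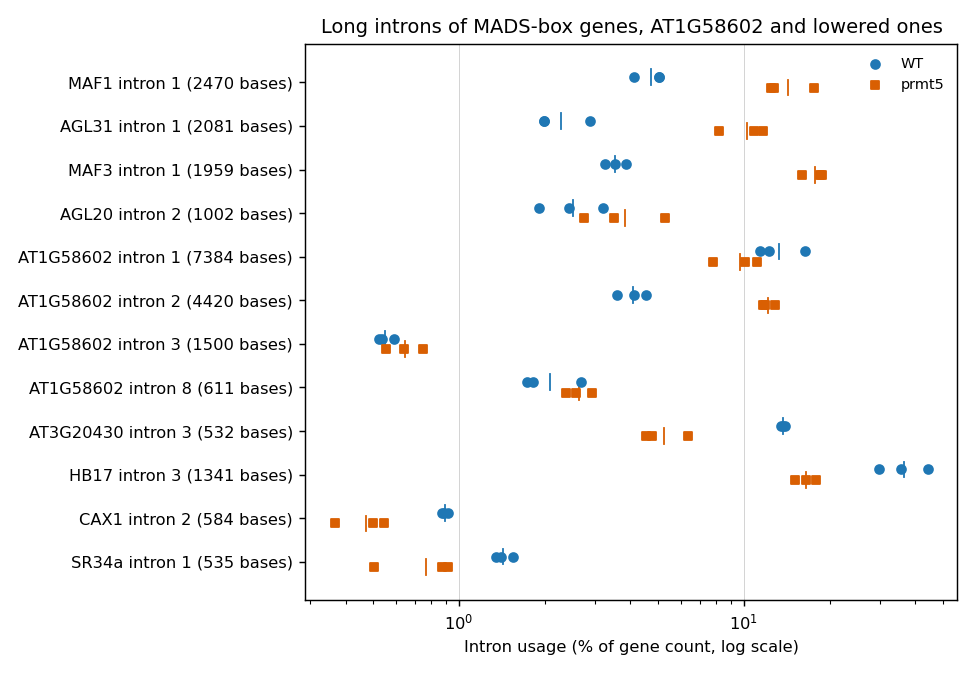
Usage in each library of the 4 raised long introns of MADS-box genes, of the 4 long introns of AT1G58602 and of 4 lowered long introns. Values are in percent of the gene count on a log scale, with circles for WT, squares for prmt5 and ticks for the means of 3. The other tested MADS-box introns, of AGL14 (lowered), SEP4 and SVP (not called), are not shown. The first introns of MAF1, AGL31 and MAF3 and intron 2 of AT1G58602 are higher in every prmt5 library, and intron 1 of AT1G58602, at 7.77 to 11.1% against 11.4 to 16.3%, is lower.

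Of the 8 longest members only 3 were tested, since the genes of the others had at most 7 counts per library. The longest member, of 57631 bases in AT5G32690, had at most 6 counts in a library, and its gene had none. Of the 5 longest tested, AT5G13250 with 5670 bases had 15.9% ± 4.95 in WT and 27.5% ± 4.62 in prmt5 (adjusted p = 0.072, and 0.035 without WT replicate 1). In LpxC3, with 5610 bases, usage was above 100% in every library and lower in prmt5 (log2 change −0.27, adjusted p = 0.0018), but every stretch of 50 bases in it is repeated in the genome and its reads cannot be assigned with certainty.

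Usage above 100% in WT, that is more counts in the intron than in the gene, was found in 22 tested long introns. The 5 with the highest usage per kb in WT were in HOS10, AT1G78030, AT5G19150, AT3G46668 and AT1G74875. HOS10's intron had 1896% ± 325 of its gene's count in WT and 1726% ± 286 in prmt5 (adjusted p = 0.43, and 0.033 with a log2 change of −0.26 without WT replicate 2), and RefSeq places AT1G35516, a myb-like gene, in it. An annotated junction of AT1G35516 inside this intron went from 64, 25 and 56 counts in WT to 0, 0 and 1 in prmt5, chosen after its values were seen and not tested. AT5G19150 holds exons of AT5G19140 and was not called (adjusted p = 0.14, and 0.033 without WT replicate 2). Of the 5, AT3G46668 was raised (log2 change 0.57, adjusted p = 0.0011), with exons of AT3G46670 inside and its gene marked as overlapping. DESeq2 did not call it (adjusted p = 0.14), nor did the fit with the median change of all introns removed (adjusted p = 0.365), and without the gene offset its log2 change was −0.25.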

How the data were processed

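Counts per gene, exon interval, intron interval and splice junction were used as the authors deposited them, as raw counts for 6 libraries. Per the submitters' processing notes, STAR and the TAIR10 genome were used; the counting program, its strand setting and its treatment of overlapping genes are not given in these sources. Per the labels' protocols, 3 μg of RNA was poly(A)-selected and amplified for 12 PCR cycles, and no strand-marking step is named. The TAIR10.1 RefSeq annotation gave intron numbers, regions, symbols (4381 of the 4393 loci were in its gene table) and sequences. After a shift of 1 base no intron kept its GT and AG.

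Introns and junctions were tested with edgeR 4.0.16 (R 4.3.3), by robust quasi-likelihood fits with log(gene count + 0.5) as the offset and minimum means of 5 and 50 counts. Host genes were tested with the trimmed mean of M-values (TMM) normalisation. P-values were adjusted by Benjamini-Hochberg over all introns, junctions or genes tested. Errors of log2 changes are the change divided by the square root of F. Single values per library were compared by exact permutation tests (SciPy 1.17.1). The fit was also tested on simulated data. Replicates differed by more than sampling noise in every pair (chi-square per degree of freedom 12.7 to 31.9). Depth is in the totals of gene counts, and no column was left unmapped. Alternatives were DESeq2 1.42.0, a likelihood ratio test, no offset, a centred offset, other minimums and lengths, a replicate block and leaving out each library.

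The members and the gene lists were chosen with earlier results of these data known. Named introns are the 10 raised and 5 lowered with the smallest p, the 5 longest tested, the 5 with the highest usage per kb in WT, and those of each list past the threshold.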

Additional observations from a re-analysis of the deposited data

How the results depend on the processing

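Of 33 named introns past the threshold, 20 passed it in every alternative tried. Without the gene offset 463 long introns were raised and 369 lowered (TMM; median log2 change −0.0297), or 462 and 370 with DESeq2's size factors (RLE; −0.0309), and 428 of the 908 raised were among those raised with TMM; junctions then numbered 138 raised and 222 lowered (TMM) or 138 and 223 (RLE). Signs turned without the offset for AT1G58602 intron 3 (−1.29 with TMM and −1.29 with RLE) and intron 8 (−1.17 and −1.17), AGL20 (−0.69 and −0.69), AT3G05410 (−0.0687 and −0.0702) and AT3G46668 (−0.25 and −0.25). With the median change of all introns removed, 444 were raised and 228 lowered, with a median of 0.0516. DESeq2 called 656 raised and 18 lowered of the 3196 long introns, beside 8042 and 120 of all 53291 tested introns. Without introns that hold a RefSeq exon, chosen after seeing the data, 21 of 2065 were lowered, beside 160 of all 43925 then tested. With lengths from 400 bases 1451 of 5124 were raised (28.3%), and from 1000 bases 161 of 548 were raised (29.4%) and 13 lowered (2.37%). Over all tested introns 21.6% were raised and 0.518% lowered. The ratio of long to shorter usage, prmt5 minus WT, was −0.21, but 0.0265 by the median over introns and 0.0328 without RefSeq exons; it was −0.118 in genes not marked as overlapping and −0.418 from 1000 bases. The cause of these changes was not tested.

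Leaving out 1 library at a time gave 727 to 961 raised and 31 to 37 lowered long introns, 2 to 4 raised and 15 to 30 lowered junctions, and medians of 0.39 to 0.48. Over all 53291 tested introns the same fits gave 9198 to 11674 raised and 210 to 254 lowered. The replicate numbers did not pair the libraries (correlations of same-numbered libraries −0.036, −0.012 and 0.003 in intron usage, and −0.20, −0.17 and −0.13 in gene expression). Gene expression correlated at 0.23, 0.25 and 0.24 between WT 1 and prmt5 3, WT 2 and prmt5 1, and WT 3 and prmt5 2; the labels do not say that these were handled together, and no fit with that pairing was run. With the same-numbered libraries as a replicate block 846 long introns were raised and 34 lowered, and 16 junctions were lowered. Of all 53291 tested introns 10716 were then raised and 236 lowered. Introns with few counts limit what could be called: of 633 with a mean of 5 to 10 counts 11.7% were raised.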
